A study of Mus musculus with 8 samples.

Results

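Transcripts of the skeletal muscle sarcomere were examined in RNA sequencing libraries of dissected mouse dorsal root ganglia, the clusters of sensory nerve cell bodies beside the spinal cord. The 10 genes, Acta1, Ckm, Myh1, Myh2, Myh4, Tnnt3, Tnni2, Tnnc2, Mylpf and Ttn, were taken by their symbols from a table of 40800 gene identifiers, and each symbol matched 1 identifier. Wild-type donors (C57BL/6, n = 4) were compared with homozygous carriers of a Tmem184b gene trap, also of C57BL/6 background (n = 4), and all were 6 months old. Sample numbers are the submitters': 1, 3, 4 and 8 for wild type and 1 to 4 for the mutant. A gene trap is an insertion in the germ line that captures splicing, so every tissue of these mice carries it, muscle included. The labels give neither the sex of the mice nor the spinal level of the ganglia. Running numbers in the table's column names are consecutive for the mutants and scattered for the wild types. What they stand for is not stated, and it cannot be told apart from genotype.

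The sarcomere is the contractile unit of striated muscle, in which thick filaments of myosin pull on thin filaments of actin, and calcium starts the pull by binding the troponin complex on the thin filament. Fast fibres use their own versions of these proteins, and most muscles of a mouse trunk are rich in fast fibres. A sensory ganglion contains neurons, satellite glia, Schwann cells, vessels and connective tissue but no skeletal muscle fibres, and it lies in a bony opening next to the muscles of the back.

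The tissue and genotype labels were checked against their genes. The 10 markers of ganglion neurons summed to between 8409 and 9888 CPM (reads scaled to a common library size) in all 8 samples. Tmem184b was at 7.36 to 7.51 log2 CPM in wild-type samples, against 2.47 to 3.10 in homozygotes. Library totals ran from 6183618 to 7983821 reads, and a single read equals between 0.125 and 0.162 CPM. Intervals of folds and of shares of reads, and floors, cover counting error only. Intervals of a log2 difference rest on the spread between samples.

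All 10 muscle genes together took 12.7, 104, 49.3 and 48.0 CPM in wild types 1, 3, 4 and 8, and 37.0, 122, 118 and 360 CPM in mutants 1, 2, 3 and 4. The smallest of these sums was 80 reads and the largest 2520 reads, which was 0.0360% of its library. Wild type 1 was the lowest sample for 7 of the 10 genes and mutant 4 the highest for 8. Wild type 3 lay beside mutants 2 and 3, and mutant 1 lay among the other wild types, so the genotypes overlapped. The group means were 53.5 ± 37.7 CPM for wild type and 159 ± 140 CPM for the mutant (SD, n = 4 each). In bulk RNA, fewer muscle fibres and less muscle RNA per fibre cannot be told apart.

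None of the 10 genes was called between genotypes. A call is an adjusted p under 0.05 in limma's fit over all genes on the deposited log2 CPM, with Benjamini-Hochberg adjustment. A gene was tested when it exceeded 0 log2 CPM in at least 4 of the 8 samples, and 8 of the 10 passed. Of these 8, 0 were called, beside 5.46% of the 15030 genes tested, while 6 of the 8 had an unadjusted p under 0.05, all higher in the mutant. At that level 14.1% of all tested genes were higher and 7.21% lower. The number of the 8 at that level was 2 without mutant 2, without mutant 4 or without wild type 1, 1 without both wild type 1 and mutant 4, 2 with no variance trend and 0 with the robust trend. Voom on the recovered reads also called 0 of the 8, with 3 at an unadjusted p under 0.05. Groups overlapped for each of the 10 genes, beside 12.4% of all tested genes whose groups did not overlap. The median log2 difference, mutant minus wild type, was 1.43 over the 10 genes and 1.61 over the 8 tested, beside 0.066 over all tested genes. For the 10 it was 0.90 without mutant 4, 0.98 without wild type 1 and 0.37 without both.

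**Figure D1:**
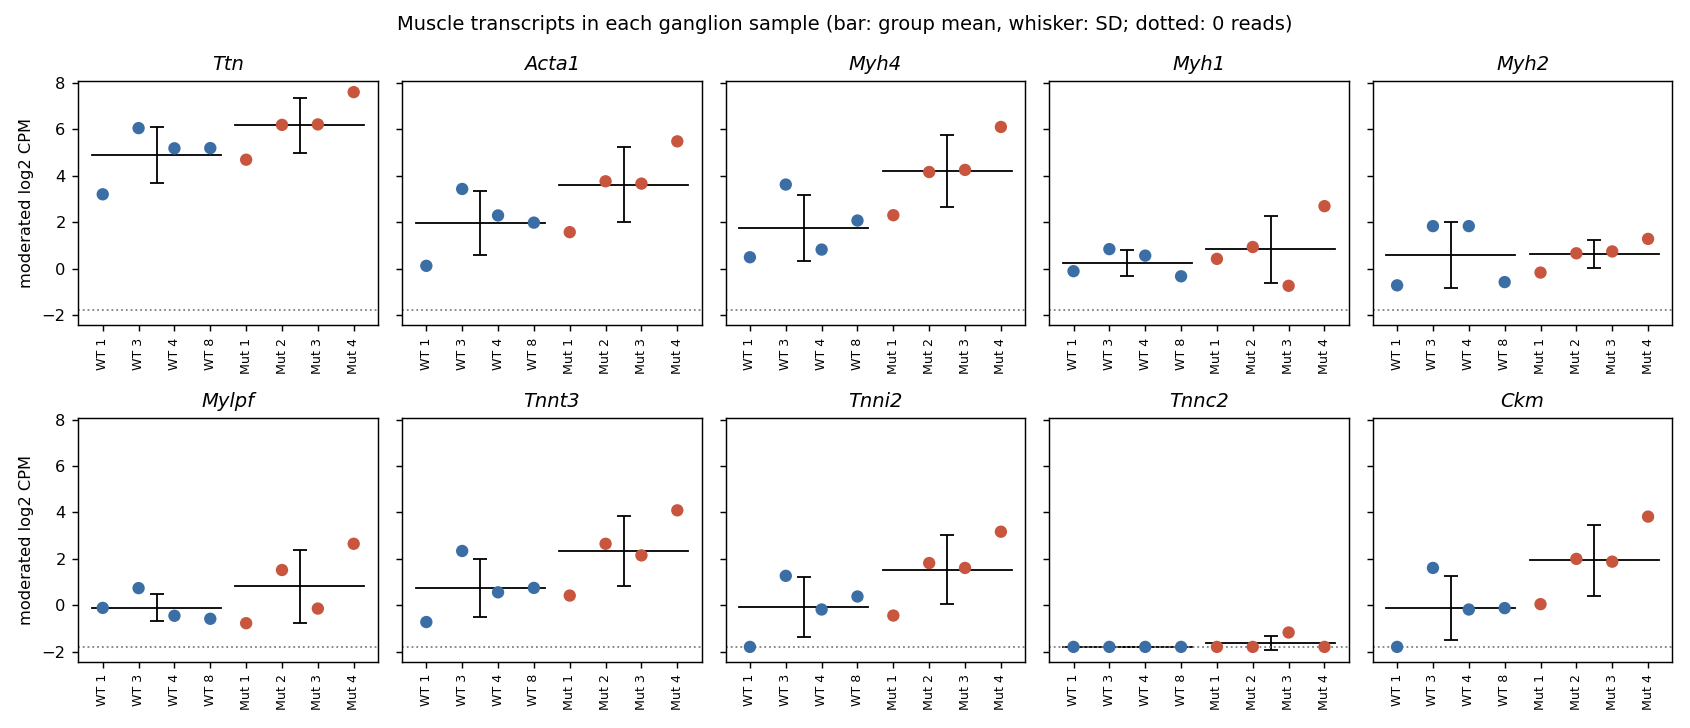
Moderated log2 CPM (y axis) of each of the 10 muscle genes in the 4 wild-type (blue) and 4 mutant (red) samples, with group means as horizontal bars and SD as whiskers, and a dotted line at the value of 0 reads. In most panels wild type 1 is lowest and mutant 4 highest, wild type 3 sits at the height of mutants 2 and 3, and Tnnc2 lies on the dotted line in 7 of 8 samples.

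Spread between samples of the same genotype, pooled over both genotypes, was larger for the tested muscle genes than for nearly all others. This residual SD on the log2 scale was 1.49 for Acta1 and Myh4 and 1.47 for Ckm, where the median over all tested genes was 0.167. Each of the 8 tested muscle genes had a larger residual SD than at least 99.7% of tested genes. Ttn, with 56 to 1359 reads per library, exceeded 99.8% of tested genes in it.

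Titin, encoded by Ttn (ENSMUSG00000051747; chromosome 2, 76703980 to 76982547, minus strand, GRCm38), is the giant spring protein that spans the sarcomere from its edge to its middle. It had 56, 525, 243 and 286 reads in wild types 1, 3, 4 and 8 and 171, 451, 479 and 1359 reads in mutants 1 to 4. Mutant 4 was highest and wild type 1 lowest, 21.9-fold apart in CPM (95% exact counting interval 16.7 to 29.1), and mutant 1 was below 3 of the 4 wild types. The log2 difference was 1.27 (SE 0.547; limma adjusted p = 0.192; exact two-sided permutation p = 0.229).

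The share of Ttn in the muscle reads was lowest in the sample with most of them. It made up 56 of the 80 reads of the 10 genes in wild type 1 (95% exact binomial interval 58.7% to 79.7%), 75.3% in wild type 8 (70.6 to 79.5) and 53.9% in mutant 4 (52.0 to 55.9). The interval of mutant 4 lay below those of the other samples. Per read of Acta1 there were 11.2 reads of Ttn in wild type 1, 9.86 in wild type 8, 9.50 in mutant 1, 7.84 in wild type 4, 6.25 in wild type 3, 5.99 in mutant 3, 5.50 in mutant 2 and 4.38 in mutant 4. The 4 lowest ratios were those of the 4 samples with the largest sums of muscle reads, a description of ratios that share the same reads.

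Skeletal alpha-actin, encoded by Acta1 (ENSMUSG00000031972; chromosome 8, 123891769 to 123894751, minus strand), forms the thin filament of adult skeletal muscle. It had 5, 84, 31 and 29 reads in wild types 1, 3, 4 and 8 and 18, 82, 80 and 310 reads in mutants 1 to 4. Mutants 2 and 3 were close to wild type 3, and mutant 4 stood above all others at 44.3 CPM. The log2 difference was 1.66 (SE 0.689; limma adjusted p = 0.176; exact two-sided permutation p = 0.229), with 4.89 ± 4.09 CPM for wild type against 18.1 ± 18.1 CPM for the mutant (SD, n = 4). The coding sequence of Acta1 is 86.3% identical to that of cardiac actin (Actc1) and 85.4% to that of the vascular smooth muscle actin Acta2, and 0 of its 1297 transcript windows of 150 bases, the read length in the labels, occurs in Actc1, Acta2 or Actg2.

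Fast myosin heavy chains are the motors of the thick filament, and Myh4, Myh1 and Myh2 mark the fibre types IIb, IIx and IIa. All 3 genes lie side by side on the plus strand of chromosome 11, Myh2 at 67171027 to 67197517, Myh1 at 67200052 to 67224575 and Myh4 at 67238029 to 67260446. Their coding sequences are 88.2% to 91.0% identical, so the stretch where they differ most is shown, with capitals at the bases that are not the same in all 3, counted along the coding sequence in GENCODE M21.
Myh1, coding bases 3851 to 3910: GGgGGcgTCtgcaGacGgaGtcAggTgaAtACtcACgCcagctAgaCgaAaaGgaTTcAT
Myh2, coding bases 3851 to 3910: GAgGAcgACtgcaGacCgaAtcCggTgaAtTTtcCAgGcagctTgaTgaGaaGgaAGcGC
Myh4, coding bases 3842 to 3901: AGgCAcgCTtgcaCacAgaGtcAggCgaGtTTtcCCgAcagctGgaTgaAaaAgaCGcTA
In these 60 bases 25 positions differ. A read of 150 bases from the transcripts would match another myosin of the cluster exactly in 2.49% of windows for Myh1, 2.06% for Myh2 and 0.511% for Myh4. How reads shared by paralogs were assigned is not given in the sources used here, so counts of these genes carry that uncertainty.

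Myh4 (ENSMUSG00000057003) came nearest to a call. It had 7, 96, 10 and 31 reads in wild types 1, 3, 4 and 8 and 31, 109, 122 and 476 reads in mutants 1 to 4. In log2 CPM, 3 mutants were above every wild type and mutant 1 was above all wild types except wild type 3. The log2 difference was 2.45 (SE 0.686; limma adjusted p = 0.0515; exact two-sided permutation p = 0.0571), with a 95% interval of 0.99 to 3.92, and Myh4 was higher by 3.08 and called without wild type 3 (limma adjusted p = 0.0199) and by 3.09 without mutant 1 (0.0217). Over all alternatives its adjusted p ranged from 0.0199 to 0.303, the highest being without both wild type 1 and mutant 4.

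Myh1 (ENSMUSG00000056328) had 4, 12, 8 and 4 reads in wild types 1, 3, 4 and 8 and 7, 10, 2 and 43 in mutants 1 to 4. Mutant 4 alone was above the range of the other 7 samples, where counts ran from 2 to 12. The log2 difference was 0.58 (SE 0.549; limma adjusted p = 0.586) and was -0.04 without mutant 4. Myh2 (ENSMUSG00000033196) had 2, 26, 22 and 3 reads in wild-type samples and 4, 8, 9 and 15 in mutant samples. Wild types 3 and 4 were the highest samples for it, and mutant 4 was not. The log2 difference was 0.04 (SE 0.553; limma adjusted p = 0.977) as deposited and -0.05 under median centring, and the 95% interval of the former was -1.14 to 1.22.

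The make-up of the fast myosins differed between samples. Myh4 gave 71.6% of the reads of the 3 genes in wild type 3 (95% exact binomial interval 63.2 to 79.1), 81.6% in wild type 8 (65.7 to 92.3) and 25.0% in wild type 4 (12.7 to 41.2). In the mutants it gave 73.8% (58.0 to 86.1), 85.8% (78.5 to 91.4), 91.7% (85.7 to 95.8) and 89.1% (86.2 to 91.6) in mutants 1 to 4. Wild type 4 was the sample in which the type IIa gene led, with Myh2 at 55.0% (38.5 to 70.7). Wild type 1 had 13 reads of the 3 genes, and its interval for Myh4, 25.1% to 80.8%, overlapped those of 5 other samples.

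**Figure D2:**
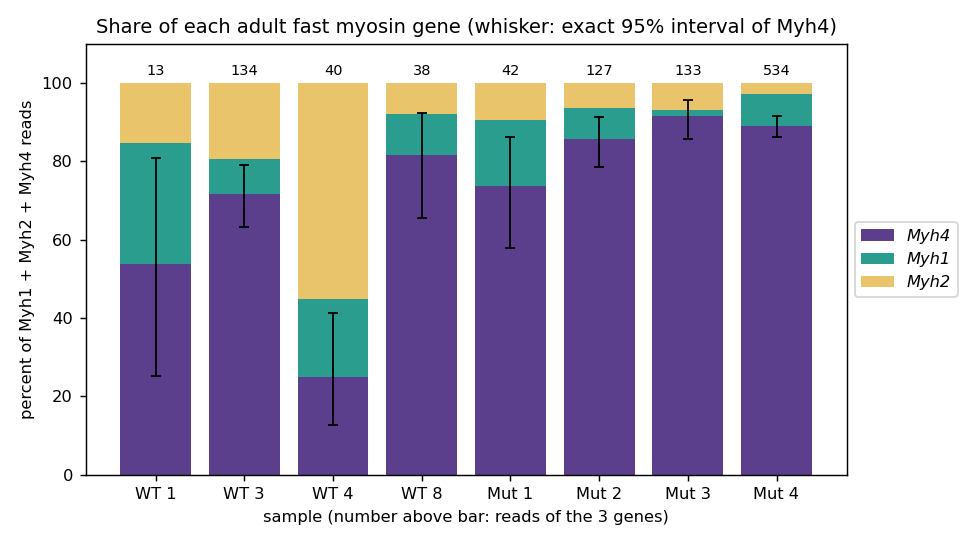
Share of Myh4, Myh1 and Myh2 in the reads of these 3 genes (y axis, percent) for each sample, with the exact 95% interval of the Myh4 share as a whisker and the number of reads above each bar. Wild type 4 is the sample with Myh2 at 55.0% and Myh4 at 25.0%, and the 4 mutants have Myh4 at 73.8% to 91.7%.

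Mylpf (ENSMUSG00000030672; chromosome 7, 127208890 to 127214298, plus strand) encodes the regulatory light chain that sits on the neck of fast myosin. It had 4, 11, 3 and 3 reads in wild-type samples and 2, 16, 4 and 42 in mutant samples. Mutants 2 and 4 were above all wild types and mutant 1 was below them. Too few samples exceeded 0 log2 CPM for a test in the fit over all genes, and the log2 difference of 0.92 had an exact two-sided permutation p of 0.343.

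Troponin has a subunit that binds tropomyosin, one that inhibits and one that binds calcium, encoded in fast muscle by Tnnt3, Tnni2 and Tnnc2. Tnnt3 (ENSMUSG00000061723; chromosome 7, 142498836 to 142516009, plus strand) had 2, 38, 8 and 11 reads in wild types 1, 3, 4 and 8 and 7, 37, 27 and 117 in mutants 1 to 4. Wild type 3 was level with mutant 2 in reads and mutant 1 was below wild types 4 and 8, for a log2 difference of 1.60 (SE 0.658; limma adjusted p = 0.174). Tnni2 (ENSMUSG00000031097; chromosome 7, 142441808 to 142444410, plus strand), its near neighbour on the chromosome, had 0, 17, 4 and 8 reads in wild-type samples and 3, 20, 18 and 61 in mutant samples. It followed the same order at the top, mutant 4 before mutant 2, and the log2 difference was 1.62 (SE 0.673; limma adjusted p = 0.177). With wild type 1 set at the floor of 3 reads, mutant 4 as counted was 18.3-fold higher. The counting error of mutant 4 is not included in that fold.

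Tnnc2 (ENSMUSG00000017300; chromosome 2, 164777161 to 164779967, minus strand), the calcium sensor of the same complex, had 0 reads in 7 samples and 1 read in mutant 3. A count of 0 allows up to 3 reads, or 0.376 to 0.485 CPM in these libraries. In mutant 4, where Tnni2 had 61 reads and Tnnt3 117, Tnnc2 had 0. In GENCODE M21 the gene overlaps Ube2c on the other strand, and whether counting used the strand is not given in the sources used here.

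Ckm (ENSMUSG00000030399; chromosome 7, 19404776 to 19422841, plus strand) encodes muscle creatine kinase, which rebuilds ATP beside the filaments. It had 0, 22, 4 and 5 reads in wild types 1, 3, 4 and 8 and 5, 23, 22 and 97 in mutants 1 to 4. Here too wild type 3 was level with mutants 2 and 3. With wild type 1 set at the floor of 3 reads, mutant 4 as counted was 29.1-fold higher, its own counting error not included. The log2 difference was 2.06 (SE 0.701; limma adjusted p = 0.103; exact two-sided permutation p = 0.0571), and without mutant 1 it was 2.69 and called (limma adjusted p = 0.0445). Other genes overlap Acta1, Ckm, Myh1, Myh2, Tnnt3 and Ttn on the other strand as well.

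Per length, actin led. With CPM divided by the kilobases of annotated exon, the mean level in the mutants was 11.8 for Acta1, 4.53 for Myh4, 4.41 for Tnnt3, 2.53 for Tnni2, 2.24 for Mylpf, 1.86 for Ckm, 0.784 for Ttn, 0.359 for Myh1, 0.190 for Myh2 and 0.048 for Tnnc2. Means in wild type were 3.19 for Acta1, 1.21 for Tnnt3 and 0.770 for Myh4, and 0.314 for Ttn. The SD between mutants was of the size of the mean for Acta1, Myh4, Ckm, Tnnt3, Tnni2, Mylpf and Myh1. For Ttn it was 72.1 CPM beside a mean of 91.6 CPM, and for Myh2 0.633 CPM beside 1.36 CPM. Each gap between neighbours in the mutant order was smaller than the SD of the higher gene, except that between Myh2 and Tnnc2.

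Most of the muscle genes followed one another across samples. Over the 8 samples, the pairwise Pearson r on the log2 scale among Acta1, Ckm, Myh4, Tnnt3, Tnni2 and Ttn ran from 0.918 to 0.993 with a median of 0.984 over 15 pairs. Myh2 had r of 0.401 to 0.652 with the other 7 tested genes and Myh1 0.494 to 0.674. These are descriptions over 8 libraries, in which pairs share the library and its scaling. Without wild type 1 and mutant 4, the r with the mean of the other tested members was 0.972 for Acta1, 0.954 for Ttn, 0.786 for Myh4 and 0.115 for Myh1.

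The 250 bases before the starts of Acta1 and Myh4 are shown from RefSeq (GRCm38.p6). The set of RefSeq promoter sequences used here held 8 of the 10 genes, without Tnnt3 and Tnni2. Acta1 and Myh4 had an r of 0.932 across libraries, lower than that of Acta1 with Ttn (0.993) or with Ckm (0.987). Capitals mark matches, on either strand, to the E-box CANNTG, to TATAAA, to the MEF2 box and to the CArG box, which are known in muscle promoters as sites for myogenic helix-loop-helix factors, for the TATA-binding protein, for MEF2 and for serum response factor.
Acta1, chr8:123894776-123895025, minus strand: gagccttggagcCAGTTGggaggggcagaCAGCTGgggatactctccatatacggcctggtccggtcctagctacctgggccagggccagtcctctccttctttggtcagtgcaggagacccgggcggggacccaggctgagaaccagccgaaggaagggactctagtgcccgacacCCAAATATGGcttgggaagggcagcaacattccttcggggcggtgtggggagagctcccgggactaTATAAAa
Myh4, chr11:67237562-67237811, plus strand: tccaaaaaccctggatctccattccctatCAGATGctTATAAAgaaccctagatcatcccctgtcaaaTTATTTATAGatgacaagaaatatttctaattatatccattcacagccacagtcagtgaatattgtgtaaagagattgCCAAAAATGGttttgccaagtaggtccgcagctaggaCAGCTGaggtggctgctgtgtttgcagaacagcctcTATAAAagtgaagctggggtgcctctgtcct
The CArG box starts 73 bases before the RefSeq start of Acta1 and 104 before that of Myh4. The GENCODE coordinates given above place both starts elsewhere. The CArG box matched in 2 of the 8 windows, where 1.47% of 32851 windows of the same length hold it. These are the 2 windows shown, and those of Ckm and Ttn had no match to it. The MEF2 box matched in 3 of 8 (Myh1, Myh4 and Ttn), beside 2.92% of all windows, and in Myh1 and Myh4 it overlaps a TATAAA match. TATAAA itself matched in 3 of 8, beside 12.4%, and the E-box in 6 of 8, beside 66.2%. A match is a description of letters in a window and shows no binding.

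Other muscle genes were examined in 7 lists of 85 genes, of which 42 were tested. Of these 42, 2 were called higher and 0 lower, beside 2.81% and 2.64% of all tested genes. An unadjusted p under 0.05 was found for 15 of the 42, all higher in the mutant. At that level 14.1% of all tested genes were higher and 7.21% lower. These genes share the same 8 samples, so the 15 are not separate results. The 2 calls were Mybpc2, which encodes the fast form of myosin-binding protein C, and Dmd, which encodes dystrophin. Mybpc2 had 7, 22, 8 and 8 reads in wild types 1, 3, 4 and 8 and 12, 30, 26 and 64 in mutants 1 to 4, with wild type 3 among the mutants, and rose by 1.43 (SE 0.392; limma adjusted p = 0.0470). That call was lost without mutant 2 (adjusted p 0.108), mutant 3 (0.0647), mutant 4 (0.135), wild type 1 (0.125), wild type 4 (0.0699) or wild type 8 (0.104). Dmd rose by 0.42 (SE 0.0711; limma adjusted p = 0.00387), from 77.7 ± 4.79 to 104 ± 8.62 CPM (SD, n = 4), and its r with the mean of the 10 genes was 0.620. Schwann cells are known to make a short dystrophin.

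Further fast sarcomere genes had 1 of 12 tested called and a median log2 difference of 0.46. Beside Mybpc2 (r 0.933 with the mean of the 10 genes), those with r over 0.9 were Actn3, the fast alpha-actinin of the sarcomere's edge (difference 1.51; limma adjusted p = 0.0890; r 0.980), Neb, which encodes the thin filament ruler nebulin (0.72; adjusted p = 0.140; r 0.957), and Xirp2 (1.62; adjusted p = 0.115; r 0.930). The fast light chain gene Myl1, which was not tested, had at most 2 reads in the wild types and 1, 9, 12 and 44 in mutants 1 to 4. Ldb3, which encodes a protein of the sarcomere's edge and has the highest level of the list, was at 21.0 ± 1.61 CPM for wild type and 24.7 ± 1.76 CPM for the mutant (SD, n = 4; limma adjusted p = 0.166), and its r was 0.598.

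Genes of calcium release had 0 of 9 tested called, with a median of 0.46. Atp2a1, the calcium pump of fast fibres, had 5, 50, 18 and 19 reads in wild-type samples and 21, 51, 42 and 188 in mutant samples, the order seen for Acta1 at both ends, and a difference of 1.64 (limma adjusted p = 0.0953). The most abundant gene of that list was Pvalb, a calcium buffer of fast fibres that ganglion proprioceptors also make, at 40.8 ± 4.72 CPM for wild type and 50.7 ± 7.02 CPM for the mutant (SD, n = 4; limma adjusted p = 0.0970). Muscle energy genes had 0 of 9 called and a median of 0.12, with Pygm, muscle glycogen phosphorylase, at 0.81 (adjusted p = 0.108) and the most abundant, Pfkm, at -0.07 (adjusted p = 0.544). Genes of the neuromuscular junction and muscle membrane had 1 of 6 called, which was Dmd, and a median of 0.28.

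Slow and cardiac sarcomere genes summed to 32.1 to 39.6 CPM for wild type and 34.8 to 42.2 CPM for the mutant, most of it from Tpm3, which many cell types express. Of the 3 tested genes of that list 0 were called, with Tpm3 at 28.3 ± 2.41 and 31.2 ± 2.32 CPM (SD, n = 4; difference 0.14; limma adjusted p = 0.385). Myh6 had 11 to 28 reads in wild type and 20 to 36 in the mutant, a difference of 0.68 (limma adjusted p = 0.192). Its r with the mean of the 10 genes was 0.088. The slow troponin I gene Tnni1 had 4 to 11 reads in wild type and 5 to 11 in the mutant, a difference of 0.13 (adjusted p = 0.844) and an r of 0.892 with the mean of the 10 genes. The slow myosin Myh7 had 19 reads in wild type 8, 9 in mutant 4, 3 in mutant 2, 1 in wild type 1 and 0 in the other 4 samples, so its highest sample was not that of the fast genes. The developmental myosins Myh3 and Myh8 were both tested, 0 were called and their median was -0.01, with Myh8 at -0.43 (limma adjusted p = 0.325). Among myogenic regulators Myod1 and Myog had 0 reads in every sample, Pax7 had at most 1, and only Mef2c, which other cell types also express, could be tested (0.14; limma adjusted p = 0.222).

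Markers of other tissues were summed beside the muscle genes, and their part in the result was not tested. Smooth muscle markers had 0 of 8 called, a median of 0.42 and sums of 61.1 to 89.3 CPM for wild type and 78.7 to 127 CPM for the mutant, highest in mutant 1 (leading gene Smtn, 0.32; limma adjusted p = 0.133). Adipocyte markers had 0 of 5 called, a median of 0.13 and sums of 17.1 to 22.5 and 15.1 to 53.0 CPM, with Adipoq at most at 4 reads and the leading gene Plin4 at 1.40 (adjusted p = 0.0668). Mutant 1, the mutant with least muscle RNA, was thus the highest sample for both lists.

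Tendon and sheath genes had 1 of 5 called, Thbs4 (0.73; limma adjusted p = 0.00449), with a median of 0.12 and sums of 43.0 to 74.8 CPM for wild type and 53.9 to 80.7 CPM for the mutant. Cartilage and bone genes had 0 of 7 called and a median of 0.07, with Matn1 at 0 reads in all samples and Hapln1 the most abundant (0.07; adjusted p = 0.825). Red blood cell genes had 0 of 5 called, a median of 0.07 and sums of 40.0 to 108 and 65.3 to 125 CPM, lowest in wild type 1 and highest in mutant 4 (Hbb-bs, 0.18; adjusted p = 0.793). Those are the samples at the ends of the muscle order too, but the samples between them did not follow that order. Wild type 4 had a red blood cell sum of 108 CPM and a muscle sum of 49.3 CPM. Wild type 3, mutant 2 and mutant 3 had 71.3, 77.9 and 65.3 CPM, with muscle sums of 104, 122 and 118 CPM. Mutant 1 was low in both, at 69.6 and 37.0 CPM. For the 5 tested red blood cell genes, r with the mean of the 10 muscle genes ran from 0.387 (Hba-a2) to 0.651 (Alas2). Central nervous system genes had 0 of 4 called and a median of 0.23, with Opalin, Neurod6 and Mnx1 at 0 reads and Slc1a2 leading (0.10; adjusted p = 0.859).

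Ganglion neuron markers had 3 of 10 called, all lower, beside 2.64% of all tested genes, with a median of -0.08: Scn10a (-0.46; limma adjusted p = 0.00956), Scn11a (-0.71; 0.00157) and Avil (-0.22; 0.0203), and Tubb3, the most abundant, at 0.06 (0.665). The call of Avil was lost without mutant 1 (limma adjusted p = 0.0588), mutant 2 (0.0507), wild type 1 (0.0657) or wild type 3 (0.0574). Their summed level moved from 9423 to 9888 CPM in wild type to 8409 to 8894 CPM for the mutant. Satellite glia and Schwann cell markers had 1 of 7 called, Glul (0.49; 0.0101), with a median of 0.16 and Mbp leading (0.31; 0.0679). The spread of these sums between samples was far smaller than that of the muscle sums.

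**Figure D3:**
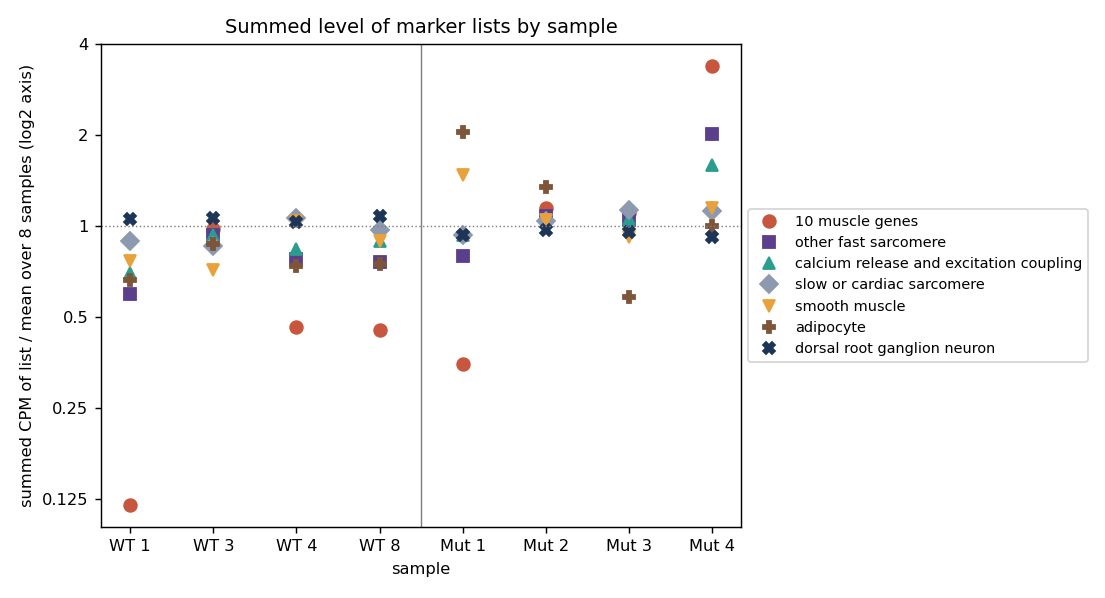
Summed CPM of 7 lists in each sample divided by the list's mean over the 8 samples (y axis, log2 scale), wild types left of the grey line and mutants right. The 10 muscle genes run from the lowest point in wild type 1 (12.7 CPM) to the highest in mutant 4 (360 CPM), while ganglion neuron markers stay between 8409 and 9888 CPM.

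**Figure D4:**
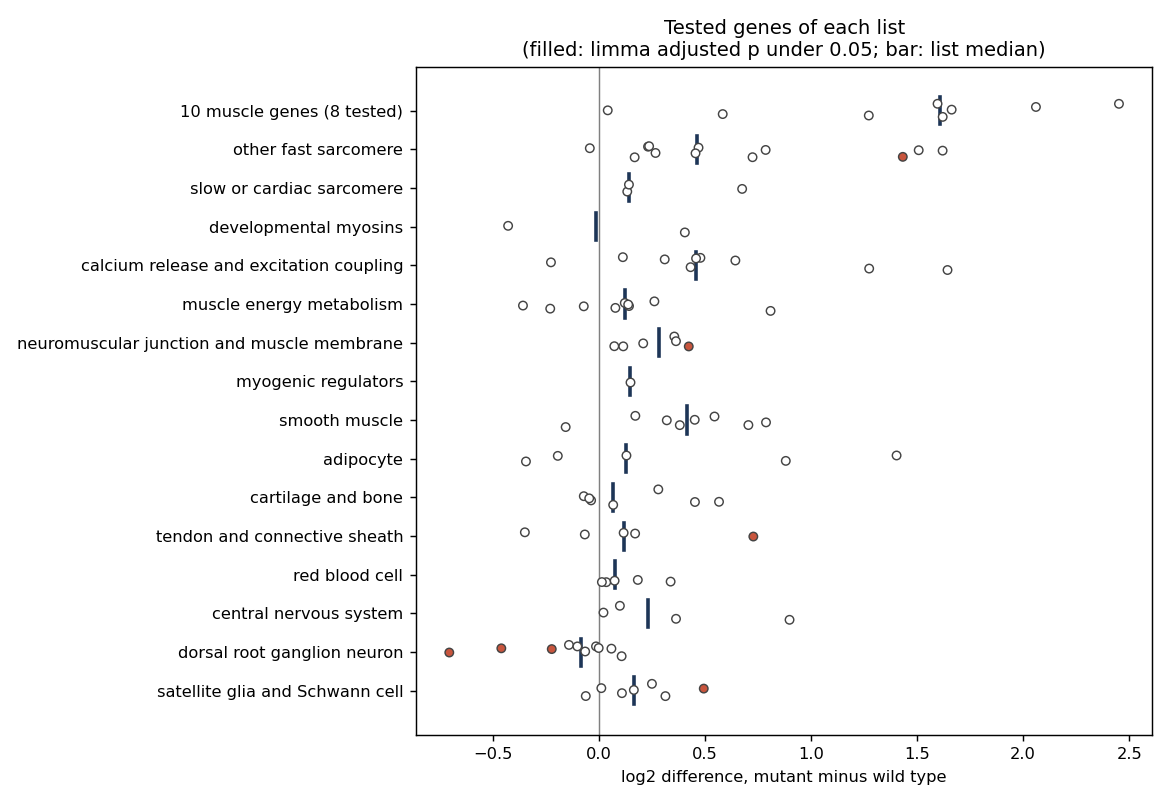
Log2 difference between mutant and wild type (x axis) of each tested gene in the muscle set and the 15 other lists, with list medians as vertical bars and genes of limma adjusted p under 0.05 filled. The muscle set has its median at 1.61 with no filled point, and filled points lie among fast sarcomere, muscle membrane, tendon, neuron and glia genes.

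The samples also differed in Xist, the transcript of the silenced X chromosome in females, and the labels state no sex. Wild type 3, mutant 3 and mutant 4 had Xist at -0.89, -0.14 and 0.37 log2 CPM, and there the muscle sums were 104, 118 and 360 CPM. In the other 5 samples Xist was at 7.72 to 8.25 log2 CPM, and their muscle sums were 12.7 to 49.3 CPM except for mutant 2 at 122 CPM. With Xist as a covariate, the difference of Myh4 was 2.05 and called (limma adjusted p = 0.0237), and no other of the 10 genes was.

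Outside all lists, the 10 tested genes whose log2 CPM over the 8 samples was most like the mean of the muscle genes were Dctn5 (Pearson r 0.993; Spearman rho 0.976), Uba2 (0.967; 0.952), Srxn1 (0.956; 0.929), Pgf (0.955; 0.929), Itga2b (0.954; 0.976), Oat (0.954; 0.952), Parvg (0.943; 0.929), Cox7a2 (0.942; 0.881), Coa6 (0.942; 0.857) and Amacr (0.940; 0.929). Their levels spanned 0.23 to 0.97 on the log2 scale, where the mean of the muscle genes spanned 3.83. Dctn5, which encodes a dynactin subunit, went from 6.63 log2 CPM in wild type 1 to 6.86 in mutant 4. None of the 10 was called, the lowest limma adjusted p being 0.0938 for Cox7a2, and among 14927 tested genes outside the lists 54 had an r over 0.9 and 29 an r under -0.9.

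The comparison of all genes was also fitted with the muscle level in the model. With the mean log2 CPM of the 10 genes added to limma's model, 103 genes were called higher and 138 lower, in place of 423 and 397, and 229 of these 241 were among the 820. With Xist added in the same way 742 were called, 671 of them among the 820. With the muscle mean in the model Tmem184b was called (-4.78; limma adjusted p = 2.50e-11), as was Scn11a (-0.61; 0.0228), and the call of Scn10a was lost (-0.33; 0.0872). The mean of the muscle genes is itself higher in the mutants, at 2.04 ± 1.19 log2 CPM against 0.81 ± 0.95 (SD, n = 4), and what the covariate removed was not tested further.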

How the data were processed

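Values are moderated log2 CPM, a library-scaled count with a small prior added before the logarithm, as deposited by the authors. The submitters' processing notes name Salmon 0.11.1, DESeq2 and build mm9, without their roles. Subtracting the floor shared by all genes on the linear scale left 100% of values within 0.02 reads of a whole multiple of 1 read, which gave back reads and library totals; 0.095% to 0.103% of reads fell outside the table. Identifiers listed more than once held equal values and were used once.

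Genotypes were compared with limma 3.58.1 in R 4.3.3 (mean-variance trend, two-sided, all 8 samples, no covariate), and single values by exact permutation over 70 assignments, with a smallest p of 0.0286. Alternatives covered the filter, 1 CPM added, centring, quantile normalization, variance model, sample weights, voom, Xist or muscle covariates, left-out samples and a replicate block.

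Genes named are the 10 muscle genes, called and most abundant genes of each list, the 10 genes most like their mean, and Tmem184b. A glial marker was left out of its list and is not reported here. The members and lists were chosen with earlier results of these data known, and genes named beyond the rule were chosen after their values were seen. GENCODE M21 (GRCm38) and RefSeq gave coordinates and sequences, matched by identifier or symbol, not the submitters' build. Sequences were aligned with mafft 7.526. Python 3.11.15, scipy 1.17.1 and matplotlib 3.10.9 were used.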

Additional observations from a re-analysis of the deposited data

Results flagged for a closer look

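Dixon's criterion set 1 sample apart from the other 3 of its genotype in 8 of 82 gene and genotype combinations. Chance would give about 4.1 if the combinations were independent. Many of these genes follow one another across samples, so the 8 cannot be judged against the 4.1. Among the muscle genes, Tnnc2 in mutant 3 was at -1.17 log2 CPM, which is 1 read, against 0 reads in the other mutants. In the companion lists, Mybpc2 in wild type 3 was at 1.61 against 0.38 to 0.56, Tpm3 in wild type 4 at 5.01 against 4.76 to 4.79 and Smtn in wild type 3 at 4.39 against 4.84 to 4.87. Thbs4 in mutant 3 was at 5.06 against 5.43 to 5.49. Mutant 4 stood apart in Hbb-bs, at 5.89 against 4.78 to 4.97. Wild type 1 stood apart in Itga2b, at 1.65 against 2.07 to 2.14, and in Oat, at 5.77 against 5.94 to 5.96. Both genes were chosen for following the muscle mean, which is lowest in wild type 1, so these flags are not separate results.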

How the results depend on the processing

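The difference of Acta1, Ckm, Myh4, Tnnt3, Tnni2, Mylpf and Ttn stayed positive in all 21 alternatives run for each. These 21 leave out the fit with the muscle mean, made from the same 10 genes, as a covariate. In that fit the median difference of the 10 genes was -0.014. The number of the 10 genes called higher was 0 as reported, 1 (Myh4) under median centring, with no filter and with the Xist covariate, and 0 to 2 with 1 sample left out. None was called lower. Differences of Tnnc2 rest on 1 read and moved to 0.53 with voom. Of the other muscle genes, 2 were called higher as reported, 1 under quantile normalization, the robust trend, sample weights, voom or without both wild type 1 and mutant 4, 0 without the variance trend, and 1 to 3 with 1 sample left out. Wild type 1 and mutant 4 were left out together after the data were examined.

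Numbers 1, 3 and 4 are shared by the genotypes, and the labels state no pairing. Same-numbered samples had correlations of deviations of 0.081, 0.041 and 0.058. These were not compared with other pairs of samples, so whether the numbers pair the samples is not known. When these 6 samples were fitted with a replicate block, 3 of the 10 genes (Acta1, Myh4 and Ttn) and 5 other muscle genes (Tpm2, Xirp2, Pvalb, Pygm and Dmd) were called higher, and without the block 0 and 1 (Dmd). Mybpc2 (limma adjusted p = 0.0952) and Avil (0.0897) lost their calls in the block. Myh2 was at -0.36 in the block and without it.

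Over all genes, median centring gave 204 higher and 706 lower, and the counts were 103 and 138 with the muscle mean as a covariate, 110 and 160 without both wild type 1 and mutant 4, and 67 and 75 with no variance trend. The block gave 326 and 345, the same 6 samples without the block 180 higher, and quantile normalization 271 higher. With 1 sample left out, counts ranged from 174 to 572 higher and from 230 to 427 lower. The causes were not tested. Quantile normalization also ended the call of Avil (limma adjusted p = 0.0929), and with no variance trend none of Mybpc2, Dmd, Thbs4, Avil, Scn10a, Scn11a and Glul was called.

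Small differences changed sign. Myh2 was at -0.0651 with 1 CPM added, -0.17 with the Xist covariate, -0.0507 under median centring, -0.14 under quantile normalization, -0.0292 with sample weights and -0.61 without both wild type 1 and mutant 4, and Myh1 was at -0.16 in that last setting. With 1 sample left out Myh1 ranged from -0.0378 to 1.11, Myh2 from -0.39 to 0.45, Hapln1 from -0.0305 to 0.17, Hbb-bs from -0.20 to 0.42 and Slc1a2 from -0.0554 to 0.37. Without both samples Hapln1 was at -0.0716, Hbb-bs at -0.46, Slc1a2 at -0.14 and Tubb3 at -0.0096. Under median centring Hapln1 was at -0.025, Tubb3 at -0.0334, Dctn5 at -0.0247 and Uba2 at -0.0082, and under quantile normalization Hapln1 was at -0.0062 and Amacr at -0.0037.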
